A study of Homo sapiens with 14 samples.

Results

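The genes described here encode the enzymes that write, copy and remove DNA methylation, chosen by name: DNMT1, DNMT3A, DNMT3B, UHRF1, UHRF2, TET1, TET2, TET3 and TDG. Of these 9 genes, 8 had a row of counts in both tables, out of 17810 and 19143 genes, and the transcript level of UHRF1 was not analysed here. They were followed in 14 RNA-seq libraries of CHP-134, an established neuroblastoma cell line with amplified MYCN, over a pair of experiments. In the first, cells carrying a doxycycline-inducible lentiviral EGFP (3 libraries) were compared with cells carrying inducible OmoMYC (3 libraries), a dominant-negative MYC fragment that competes for the partners of MYC proteins. Both of these lines were selected with G418, grown in tetracycline-approved serum and given 1 µg/ml doxycycline for 3 days, and since each was engineered separately, differences between the lines and the effect of OmoMYC cannot be told apart. In the second, parental cells in normal serum received DMSO (4 libraries) or 500 nM dTAG47 (4 libraries) for 18 h. dTAG47 is a degrader of proteins that carry an FKBP12(F36V) tag, and the parental cells carry none, so that experiment measures what the compound does by itself. The first comparison asks which transcripts depend on N-MYC activity and the second is a control for effects of the compound other than degradation of a tagged protein.

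Methylated cytosine in mammals sits mostly at CG dinucleotides. DNMT3A and DNMT3B set new methyl groups, whereas DNMT1 copies the pattern to the daughter strand after replication, guided by UHRF1, which binds hemimethylated DNA. UHRF2 is the paralog of UHRF1 and also binds 5-hydroxymethylcytosine. The TET dioxygenases oxidise 5-methylcytosine to 5-hydroxymethylcytosine and further to 5-formylcytosine and 5-carboxylcytosine, and TDG, a DNA glycosylase, cuts out the last pair of these so that base excision repair can restore unmodified cytosine. DNA methylation itself was not measured in these libraries, and every value below is a transcript level.

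Since MYC proteins with their partner MAX bind the E-box CACGTG, the promoter windows of the enzymes were read from RefSeq (GRCh38.p14). Each window runs from 250 bases before a transcription start to 50 bases after it, and all 9 genes had at least 1 window, 20 in all. The searched letters, on either strand, were CACGTG, the GC box GGGCGG, and TTTCGCG or TTTGGCG as E2F-type sites. Overlapping GC boxes were each counted, and no motif overlaps another in the sequences printed. CACGTG was found in 5 windows of 4 genes, namely TET3, TET2, DNMT3A and TDG, against 8.77% of the 27305 genes in the RefSeq table with at least 1 such window. In DNMT3A the same CACGTG was read in overlapping windows, and the windows further upstream, within chr2:25341876-25342840, held none. TET2 and TET3 each also had a window without it (chr4:105146626-105146925 and chr2:74002442-74002741). GGGCGG was found in 12 windows of 5 genes (48.3% of all genes), and the E2F-type letters in 3 windows of 2 genes, DNMT1 and UHRF1 (3.85% of all genes). Genes differ in how many windows they have, DNMT3A with 6 and DNMT1 with 1, and a match describes letters and not binding.

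The 250 bases upstream of a start are shown, 5′ to 3′ on the strand of the gene, for the 4 genes with an E-box and for TET1, the family member whose 3 windows held none of the searched motifs. Capitals mark CACGTG and GGGCGG, the latter also as its reverse complement CCGCCC. The TET3 window lies at chr2:73984660-73984909 on the plus strand, the TET2 window at chr4:105145625-105145874 on the plus strand, the DNMT3A window at chr2:25252316-25252565 on the minus strand, the TDG window at chr12:103965622-103965871 on the plus strand and the TET1 window at chr10:68560087-68560336 on the plus strand.
TET3: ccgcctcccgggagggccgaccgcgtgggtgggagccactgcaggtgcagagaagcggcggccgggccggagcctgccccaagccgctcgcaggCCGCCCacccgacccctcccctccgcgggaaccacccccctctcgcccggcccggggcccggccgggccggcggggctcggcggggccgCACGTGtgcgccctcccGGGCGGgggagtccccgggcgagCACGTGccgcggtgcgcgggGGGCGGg
TET2: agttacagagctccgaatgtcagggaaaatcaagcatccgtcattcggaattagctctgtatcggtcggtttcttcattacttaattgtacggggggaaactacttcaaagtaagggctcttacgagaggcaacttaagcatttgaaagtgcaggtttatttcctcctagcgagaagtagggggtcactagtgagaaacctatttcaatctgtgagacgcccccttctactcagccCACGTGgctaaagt
DNMT3A: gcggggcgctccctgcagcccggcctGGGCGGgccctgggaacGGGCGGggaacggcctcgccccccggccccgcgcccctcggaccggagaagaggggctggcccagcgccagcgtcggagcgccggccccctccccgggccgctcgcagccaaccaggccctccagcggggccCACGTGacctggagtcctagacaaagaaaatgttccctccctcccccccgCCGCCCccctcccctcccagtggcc
TDG: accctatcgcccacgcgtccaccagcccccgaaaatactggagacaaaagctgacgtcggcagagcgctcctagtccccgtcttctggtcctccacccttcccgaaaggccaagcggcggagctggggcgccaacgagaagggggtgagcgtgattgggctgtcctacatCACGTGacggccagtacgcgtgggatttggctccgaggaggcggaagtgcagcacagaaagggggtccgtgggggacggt
TET1: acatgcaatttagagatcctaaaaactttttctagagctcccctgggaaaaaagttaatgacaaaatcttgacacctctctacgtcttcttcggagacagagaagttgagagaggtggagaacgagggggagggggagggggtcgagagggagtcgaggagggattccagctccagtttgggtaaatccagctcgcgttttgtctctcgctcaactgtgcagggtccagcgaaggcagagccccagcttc

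The TET3 window held CACGTG at 2 places and the other E-box windows once each. CG dinucleotides were counted over the whole 300-base windows, where the median of all 35116 windows in the table was 14. The TET3 window held 45, the DNMT3A window 28, the TDG window 22, the TET2 window 13 and the TET1 window 10. The lowest number among the 20 windows was 3, in the only DNMT3B window (chr20:32779602-32779901), and the single DNMT1 window held 30. Whether a window lies at the main start of its gene was not examined. The DNMT3B number therefore describes that window and not the promoter of the gene as a whole. Of the 4 genes with an E-box window, 3 were called higher with OmoMYC and 1 lower by the test given below, in a comparison where 53.0% of all tested genes were called, 27.3% higher and 25.7% lower. This is a description of few genes.

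Libraries held 28060817 to 53451641 counts on genes. In the check of the labels, MYC, whose count takes in reads of the OmoMYC transgene, had 16 to 20 counts in the EGFP libraries and 15040 to 20295 in the OmoMYC libraries. Among the neuroblastoma markers, GATA3 was well expressed, with 302 CPM on average in EGFP cells, whereas TH and DBH were near 0 (0.238 and 0.405 CPM). When replicate libraries were set against each other gene by gene, chi-square divided by its degrees of freedom, which is 1 where replicates differ by counting error only, was 21 and 42.1 for EGFP replicate 1 against the other EGFP libraries and 2.79 to 8.58 among OmoMYC libraries. It was 8.17 to 22.4 for dTAG47 replicate 2 against the other dTAG47 libraries. Results are therefore also given without EGFP replicate 1 and dTAG47 replicate 2.

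OmoMYC and EGFP cells differed in 6 of the 8 enzymes with counts, and in opposite directions within the same families. TET2 and TET3 rose and TET1 fell, DNMT3A rose, and UHRF2 and TDG fell, while DNMT1 and DNMT3B did not pass the test. Levels are given as CPM, the count of a gene relative to the TMM-scaled total of its library, and a gene was called changed at an adjusted p under 0.05 by edgeR's quasi-likelihood test with Benjamini-Hochberg adjustment over 13803 genes. This was a comparison in which 53.0% of all tested genes were called, 27.3% higher and 25.7% lower, and the 6 of 8 enzymes called (75.0%) are to be read against it. The median size of the log2 fold change was 0.37 over the 8 enzymes and 0.31 over all tested genes. The groups did not overlap for those 6 enzymes, as they did not for 62.3% of all tested genes (32.0% higher and 30.3% lower with OmoMYC). In bulk libraries, fewer cells with a transcript and less of it per cell cannot be told apart.

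**Figure D1:**
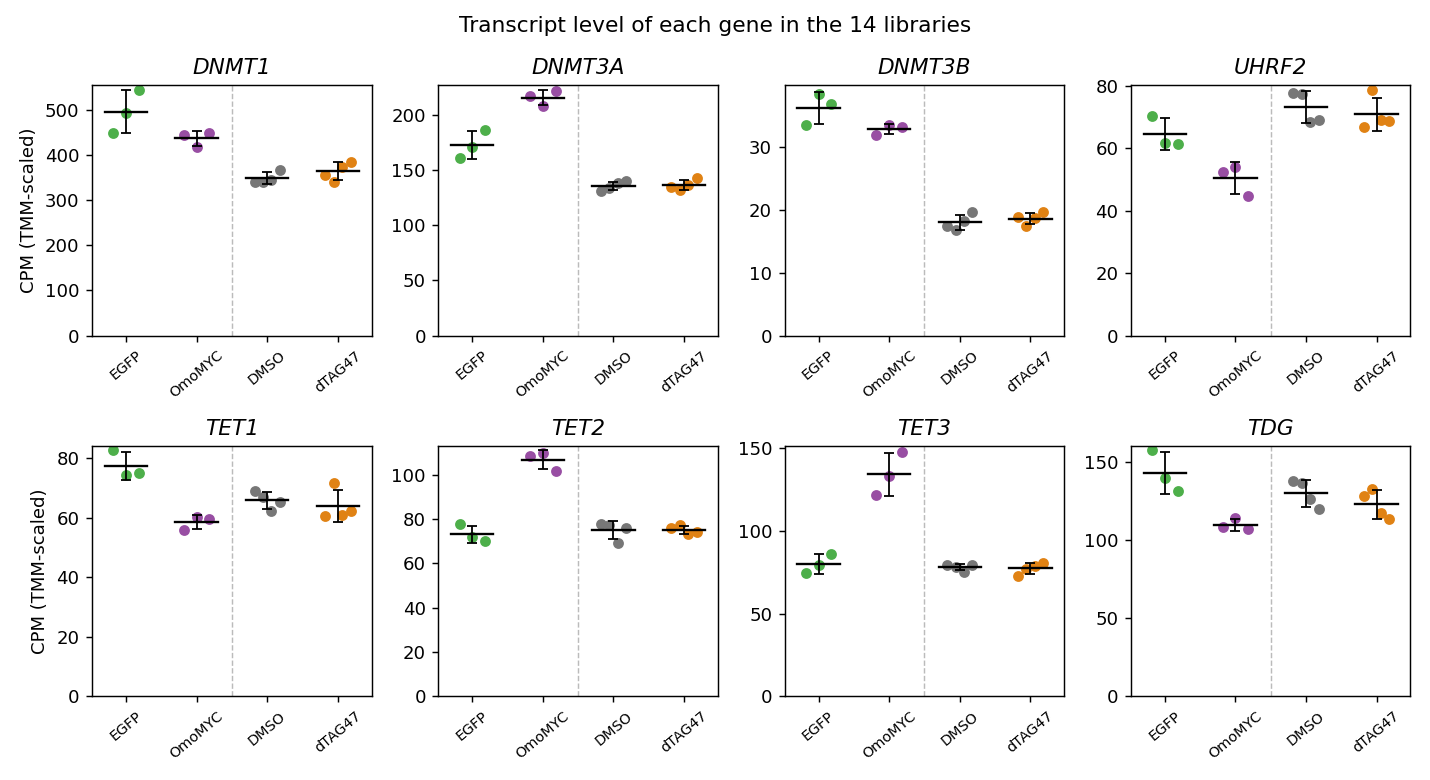
CPM (TMM-scaled, axes from 0) of the 8 enzymes in each library, with points for libraries, a bar for the group mean and whiskers for 1 SD; the dashed line separates the experiments, which were scaled separately. TET2 and TET3 points of OmoMYC lie above all EGFP points, TET1, UHRF2 and TDG points lie below them, and DMSO and dTAG47 points overlap for every gene.

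Among the writers, DNMT1 (ENSG00000130816.10, chr19:10244018-10341962 in hg19, minus strand) was at 449, 494 and 545 CPM in the EGFP libraries and at 445, 418 and 449 CPM in the OmoMYC libraries. The lowest EGFP library, replicate 1, lay at the upper edge of the OmoMYC libraries and the groups overlapped. The log2 fold change was -0.18 (SE 0.077, 95% interval -0.35 to -0.01), and the adjusted p of 0.0676 in edgeR's quasi-likelihood test missed the threshold. Without EGFP replicate 1 the log2 fold change of DNMT1 was -0.26 with an adjusted p of 0.000757 in edgeR, and with all 6 libraries it was also called lower by DESeq2 (adjusted p 0.0404), with RLE factors (0.0464) or upper quartile factors (0.0486) in edgeR, and with a replicate block (0.0266). The call for the maintenance methyltransferase thus depended on that library, the tool, the scaling and the block.

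DNMT3A (ENSG00000119772.12, chr2:25450724-25565459, minus strand) was at 161, 171 and 186 CPM in EGFP cells and at 217, 208 and 222 CPM in OmoMYC cells. Every OmoMYC library was above every EGFP library. DNMT3A rose 1.25-fold (log2 fold change 0.32, SE 0.072, edgeR adjusted p 0.00371), and by 0.26 on the log2 scale without EGFP replicate 1.

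DNMT3B (ENSG00000088305.14, chr20:31350191-31397165, plus strand), the other de novo methyltransferase, was at 33.4, 38.3 and 36.7 CPM in EGFP cells and at 31.8, 33.5 and 33.0 CPM in OmoMYC cells. EGFP replicate 1 again lay among the OmoMYC libraries. The log2 fold change was -0.14 (95% interval -0.32 to 0.04) with an edgeR adjusted p of 0.166, and without EGFP replicate 1 it was -0.21 with an adjusted p of 0.0204. The de novo enzymes thus differed in what could be called, DNMT3A being higher under every alternative tried and DNMT3B called lower in 1 of 14.

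UHRF2 (ENSG00000147854.12, chr9:6413151-6507054, plus strand), the counted member of the pair that reads hemimethylated DNA, was at 70.4, 61.8 and 61.5 CPM in EGFP cells and at 52.5, 54.1 and 44.7 CPM in OmoMYC cells. All OmoMYC libraries were below all EGFP libraries. UHRF2 fell with a log2 fold change of -0.36 (SE 0.093, edgeR adjusted p 0.00852), which was -0.30 without EGFP replicate 1.

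The oxidases held the 2 enzymes with the largest rises and 1 of the 3 that fell, by amounts within 1 SE of each other. TET3 (ENSG00000187605.11, chr2:74212037-74335303, plus strand) was at 74.8, 79.2 and 86.3 CPM in EGFP cells and at 122, 133 and 148 CPM in OmoMYC cells. Its highest EGFP library was far below its lowest OmoMYC library. TET3 rose 1.68-fold (log2 fold change 0.75, SE 0.088, edgeR adjusted p 7.99e-05), a size above that of 85.4% of all tested genes. The log2 fold change was 0.68 without EGFP replicate 1.

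TET2 (ENSG00000168769.8, chr4:106067032-106200973, plus strand) was at 77.6, 71.9 and 70.2 CPM in EGFP cells and at 108, 110 and 102 CPM in OmoMYC cells. The groups were well apart and the spread within each was small. TET2 rose 1.46-fold (log2 fold change 0.54, SE 0.072, edgeR adjusted p 0.00016), and the log2 fold change was 0.57 without EGFP replicate 1.

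TET1 (ENSG00000138336.8, chr10:70320094-70454244, plus strand) moved the other way. It was at 82.9, 74.3 and 75.2 CPM in EGFP cells and at 56.0, 60.2 and 59.5 CPM in OmoMYC cells. All OmoMYC libraries were below all EGFP libraries, and TET1 fell with a log2 fold change of -0.40 (SE 0.075, edgeR adjusted p 0.00128), or -0.37 without EGFP replicate 1.

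TDG (ENSG00000139372.10, chr12:104359600-104382652, plus strand), the glycosylase downstream of the oxidases, was at 158, 140 and 131 CPM in EGFP cells and at 108, 114 and 107 CPM in OmoMYC cells. The OmoMYC libraries lay close together below the EGFP libraries. TDG fell with a log2 fold change of -0.38 (SE 0.080, edgeR adjusted p 0.00253), or -0.32 without EGFP replicate 1. The genome holds processed pseudogenes of TDG, UHRF2 and DNMT3A, and how reads that match both copies were counted is not given in the sources used here. In the annotation, exons of TDG and TET3 share 168 and 390 bases with a long non-coding RNA on the same strand, and exons of DNMT1 share 83 bases with S1PR2.

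**Figure D2:**
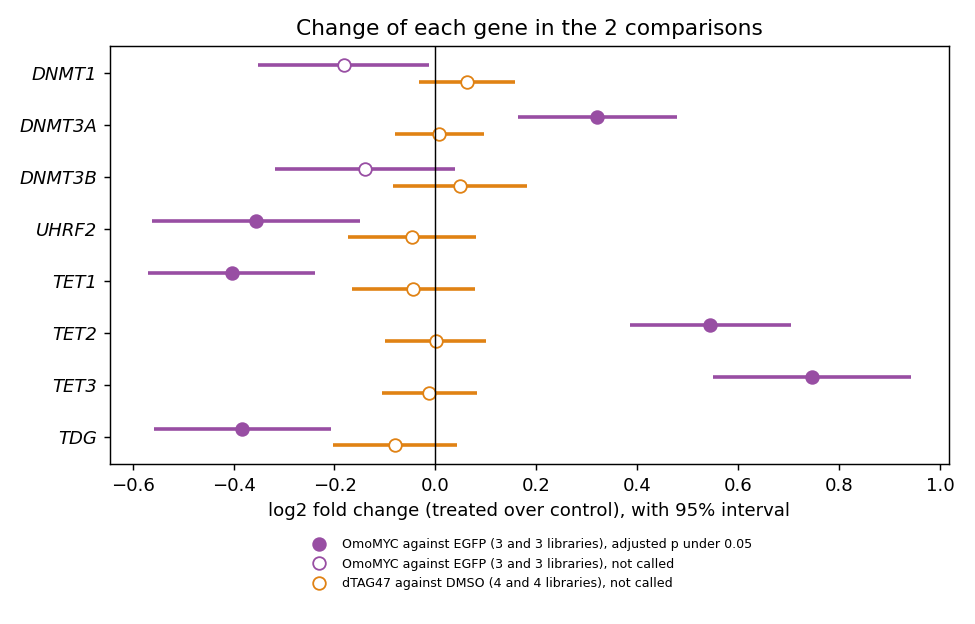
Log2 fold change of each enzyme with its 95% interval for OmoMYC against EGFP (3 and 3 libraries) and dTAG47 against DMSO (4 and 4 libraries), with filled points for an adjusted p under 0.05. The OmoMYC points run from -0.40 for TET1 to 0.75 for TET3, whereas every dTAG47 interval lies between -0.20 and 0.18.

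Between genes, levels were compared as RPKM, the CPM divided by the kilobases of merged exons. In EGFP cells DNMT1 (32.2 ± 3.12, SD, n = 3) and TDG (29.3 ± 2.76) led and their libraries overlapped. DNMT3A followed at 12.5 RPKM and TET1 at 8.06 RPKM, each apart from its neighbours. UHRF2 (6.51 RPKM) and TET3 (6.19 RPKM) overlapped, and DNMT3B (5.26 RPKM) and TET2 (4.45 RPKM) came last. TET1 was thus the highest of the TET transcripts per length in EGFP cells. Other parts of this order depend on the length used. By the length of the canonical transcript, DNMT1 (94.0 RPKM) did not overlap TDG (44.9 RPKM) in EGFP cells. DNMT3A (18.3 RPKM) then overlapped UHRF2 (18.1 RPKM), and TET3 (6.64 RPKM) came last.

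In OmoMYC cells the order began DNMT1 (28.4 RPKM), TDG (22.5 RPKM) and DNMT3A (15.7 RPKM), with no overlap among them. TET3 came next at 10.4 RPKM, then TET2 (6.48 RPKM) and TET1 (6.09 RPKM), whose libraries overlapped. UHRF2 (5.09 RPKM) and DNMT3B (4.77 RPKM) overlapped at the lower end. With the length of the canonical transcript in place of merged exons, TET1 was still first by mean among the TET genes in EGFP cells (8.06 RPKM, its libraries overlapping those of TET2 at 7.64) and last in OmoMYC cells (6.09 RPKM), while TET2 and TET3 were level at 11.1 RPKM there. UHRF2 (14.1 RPKM) lay above the TET genes in OmoMYC cells by that length.

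As a share of the summed TET RPKM, TET1 made up 45.1%, 42.5% and 41.7% in the EGFP libraries and 26.7%, 27.0% and 26.0% in the OmoMYC libraries. The share of TET3 was 33.1% ± 2.69 (SD, n = 3) in EGFP and 45.1% ± 2.55 in OmoMYC cells, and that of TET2 was 23.8% ± 0.974 and 28.3% ± 2.12. By canonical length TET1, TET2 and TET3 made up 36.1%, 34.2% and 29.8% in EGFP cells. In OmoMYC cells they made up 21.5%, 39.3% and 39.2% by that length. These shares are a description, restating the changes above within the family. The ratio of TET3 to TET1 ran from 0.670 to 0.853 among EGFP and from 1.62 to 1.85 among OmoMYC libraries, so TET3 was below TET1 in every EGFP library and above it in every OmoMYC library, which also held with canonical lengths (0.719 to 0.915 and 1.73 to 1.98). Over merged exons, the ratio in parental libraries was 0.853 to 0.902 with DMSO and 0.795 to 0.964 with dTAG47. With canonical lengths it was 0.916 to 0.968 with DMSO and 0.853 to 1.03 with dTAG47, on both sides of 1.

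Within the methyltransferases, DNMT1 made up 64.4% ± 0.771 (SD, n = 3) of the summed RPKM in EGFP cells and 58.2% ± 0.504 in OmoMYC cells, and DNMT3A 25.1% ± 0.407 and 32.0% ± 0.0616. These sizes depend on the length used. By canonical length DNMT1 made up 77.9% in EGFP and 73.1% in OmoMYC cells, and DNMT3A 15.2% and 20.2%. Over merged exons, the ratio of DNMT3A to DNMT3B was 2.23 to 2.53 in EGFP cells and 3.10 to 3.41 in OmoMYC cells. In the parental libraries it was higher than in both, at 3.56 to 3.99 with DMSO and 3.59 to 3.78 with dTAG47. Summed TET RPKM was 18.7 ± 0.452 in EGFP and 22.9 ± 1.02 in OmoMYC cells, and summed DNMT RPKM was 50.0 ± 4.27 and 48.8 ± 1.52. The oxidases as a group were thus higher in each OmoMYC library, and the summed methyltransferases overlapped between the groups.

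**Figure D3:**
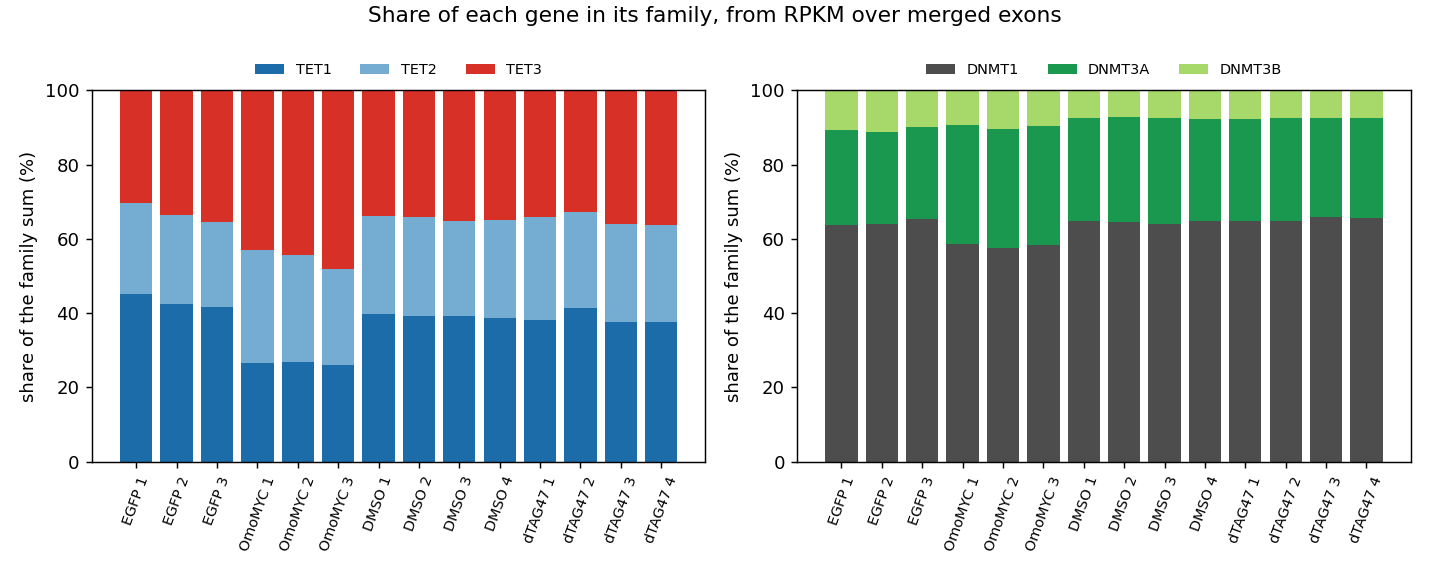
Share of each gene in the summed RPKM (merged exons) of the TET family, left, and of the DNMT family, right, as stacked bars for the 14 libraries, in percent. TET1 takes 41.7% to 45.1% of the TET sum in EGFP cells and 26.0% to 27.0% in OmoMYC cells, and the 8 parental libraries resemble one another.

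In parental cells none of the 8 enzymes was called with dTAG47 by edgeR, DESeq2 or limma-voom, and 0 had an unadjusted p under 0.05 in edgeR. The background was low as well, at 0.159% of 14470 tested genes called, 0.117% higher and 0.0415% lower. The smallest edgeR adjusted p among the enzymes was 0.711, and no enzyme had groups that did not overlap, against 3.34% of all tested genes (1.87% higher and 1.47% lower with dTAG47). The 95% intervals of all 8 together lay between fold changes of 0.868 and 1.13, so that changes of the size of those of DNMT3A, TET1, TET2, TET3, TDG and UHRF2 in OmoMYC cells were outside the intervals for dTAG47 in this experiment.

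TET3 was at 79.3, 78.2, 75.4 and 79.2 CPM with DMSO and at 73.1, 76.9, 78.6 and 80.8 CPM with dTAG47. The libraries of both groups were intermixed, and the log2 fold change was -0.01 (95% interval -0.11 to 0.08). TET2 was at 78.0, 77.5, 69.3 and 75.8 CPM with DMSO and at 75.9, 77.5, 73.3 and 74.3 CPM with dTAG47, for a log2 fold change of 0.00088 (95% interval -0.10 to 0.10). TET1 was at 69.0, 67.0, 62.2 and 65.2 CPM with DMSO and at 60.5, 71.8, 60.9 and 62.3 CPM with dTAG47. The highest TET1 library was dTAG47 replicate 2, and the log2 fold change was -0.04 with it and -0.11 without it, not called either way (edgeR adjusted p 0.816 and 0.203).

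DNMT1 was at 341, 340, 344 and 368 CPM with DMSO and at 355, 341, 374 and 385 CPM with dTAG47. The log2 fold change of DNMT1 was 0.06 (95% interval -0.03 to 0.16). TDG was at 137, 136, 126 and 120 CPM with DMSO and at 128, 133, 117 and 113 CPM with dTAG47. The log2 fold change of TDG was -0.08 (95% interval -0.20 to 0.04). In both groups TDG was higher in replicates 1 and 2 than in replicates 3 and 4. UHRF2 ran from 68.3 to 77.9 CPM with DMSO and from 66.9 to 78.6 CPM with dTAG47, DNMT3A from 131 to 140 and from 132 to 142 CPM, and DNMT3B from 16.7 to 19.6 and from 17.4 to 19.6 CPM. Each of these ranges overlapped over most of its length. Without dTAG47 replicate 2 the log2 fold change was 0.09 for DNMT1, 0.02 for DNMT3A, 0.08 for DNMT3B, -0.10 for UHRF2, -0.014 for TET2, -0.0092 for TET3 and -0.12 for TDG, and none of these was called (edgeR adjusted p from 0.199 to 0.924).

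The parental and engineered lines were scaled and counted separately, so their levels stand side by side without a test. DNMT3B averaged 36.1 CPM in EGFP cells and 18.0 CPM with DMSO, and DNMT1 496 and 348 CPM. TET2 (73.2 and 75.2 CPM) and TET3 (80.1 and 78.0 CPM) were close. Per length, TDG came first in DMSO libraries (26.6 RPKM) ahead of DNMT1 (22.7 RPKM) without overlap, an order that held for merged exons and not for canonical transcripts, where DNMT1 was first in each group.

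**Figure D4:**
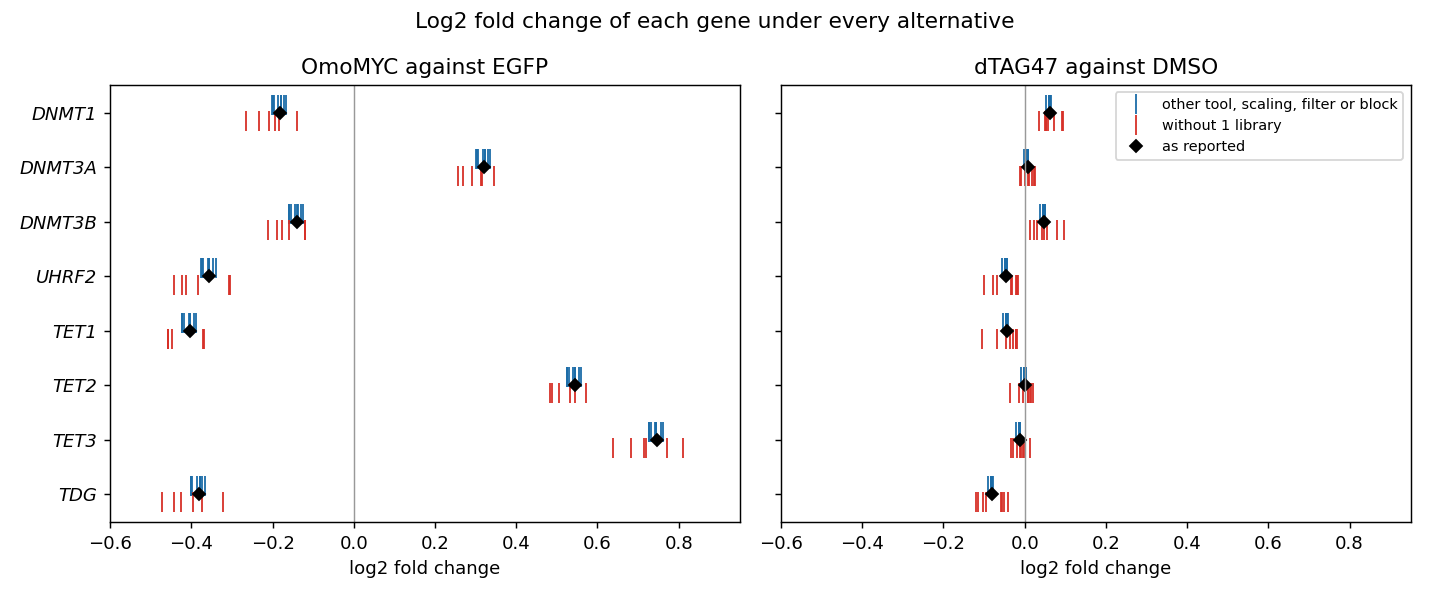
Log2 fold change of each enzyme as reported (diamonds), under other tools, scalings, filters or a block (blue ticks) and without 1 library (red ticks), for OmoMYC against EGFP, left, and dTAG47 against DMSO, right. The OmoMYC values keep their direction throughout, for TET3 from 0.64 to 0.81 and for TET1 from -0.46 to -0.37, and the dTAG47 values of DNMT3A, TET2 and TET3 fall on both sides of 0.

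Other genes around DNA methylation were taken from fixed lists and described by counts, against the same background of 27.3% called higher and 25.7% called lower, and a median log2 fold change of 0.01 over all tested genes. Of 8 tested readers of methylated DNA, 5 rose and 2 fell with OmoMYC, with a median log2 fold change of 0.34. ZBTB4, a zinc finger protein that binds methylated CG, rose by 0.59 on the log2 scale (31.6 to 47.5 CPM, edgeR adjusted p 0.00159), and MBD5, a relative of the methyl-binding proteins, by 0.58 (30.4 to 45.3 CPM, adjusted p 0.000165). MBD4, a glycosylase that acts on the mismatches left by deaminated methylcytosine, fell with a log2 fold change of -0.59 (52.4 to 34.9 CPM, adjusted p 0.000172), and MBD2 with one of -0.33 (28.2 to 22.5 CPM, adjusted p 0.00589). MBD4 thus moved in the direction of TDG, the other mismatch glycosylase.

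Of 13 tested partners of the methyltransferases, none rose (1 at an unadjusted p under 0.05 in edgeR) and 8 fell, with a median log2 fold change of -0.26. CDCA7L went from 100 to 52.6 CPM (log2 fold change -0.93, edgeR adjusted p 5.01e-06). CDCA7, which recruits the remodeller HELLS to chromatin, went from 85.9 to 49.9 CPM (-0.78, adjusted p 8.05e-05). Among the other genes that fell were HELLS itself (-0.69) and PCNA, the replication clamp to which DNMT1 binds (-0.71). Of 8 tested genes of methyl donor supply, 2 rose and 4 fell. MAT2A, which makes S-adenosylmethionine, fell from 417 to 316 CPM (-0.40, adjusted p 0.00128), and its regulatory partner MAT2B from 103 to 64.7 CPM (-0.67, adjusted p 0.000156). AHCYL2, a relative of the enzyme that clears S-adenosylhomocysteine, rose by 0.56 on the log2 scale.

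Of 19 tested TET regulators and repair genes, 4 rose and 5 fell, with a median log2 fold change of 0.04. GADD45G rose by 0.77 (9.66 to 16.4 CPM, edgeR adjusted p 0.000354), and CXXC4, a CXXC protein encoded next to TET2 that binds it, rose by 0.71 (39.8 to 65.1 CPM, adjusted p 0.000269). NEIL3, a glycosylase, fell with a log2 fold change of -0.68 (26.9 to 16.7 CPM), and IDH1, a source of the 2-oxoglutarate that the oxidases use, with one of -0.55 (111 to 75.7 CPM). No gene of these 4 lists was called with dTAG47 by edgeR, and at an unadjusted p under 0.05 only TET regulators and repair genes appeared, 1 higher and 1 lower.

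Genes of S phase moved with the groups. Of 23 tested, none rose (0 at an unadjusted p under 0.05 in edgeR) and 15 fell, with a median log2 fold change of -0.27, among them TYMS (-0.65) and MCM6 (-0.64). Their summed level was 4915 to 5346 CPM in EGFP and 4091 to 4127 CPM in OmoMYC libraries, with no overlap. DNMT1, UHRF1 and several partners are themselves expressed mostly in cycling cells, and the part of S phase in the enzyme changes was not tested. With dTAG47 none of the 23 was called by edgeR (2 were higher at an unadjusted p under 0.05), and the sums were 4786 to 4849 CPM with DMSO and 4746 to 5103 CPM with dTAG47.

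Of 9 tested neuroblastoma markers, 3 rose and 2 fell with OmoMYC. ISL1 rose by 0.75 on the log2 scale, and MYCN fell with a log2 fold change of -0.28 (2712 to 2240 CPM, edgeR adjusted p 0.0103). Of 8 tested markers of other cell types, 1 rose (COL1A1, 0.57) and 2 fell (COL1A2, -1.02, and PTPRC, with at most 13 counts per library). Their sum over all 11 genes was 53.7 to 62.7 CPM in EGFP and 53.0 to 63.2 CPM in OmoMYC libraries, and PECAM1 had 0 or 1 counts. In the parental experiment the sum over the 10 genes counted there was 25.1 to 26.1 CPM with DMSO and 27.7 to 30.1 CPM with dTAG47. The part of other cells in the enzyme values was not tested.

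**Figure D5:**
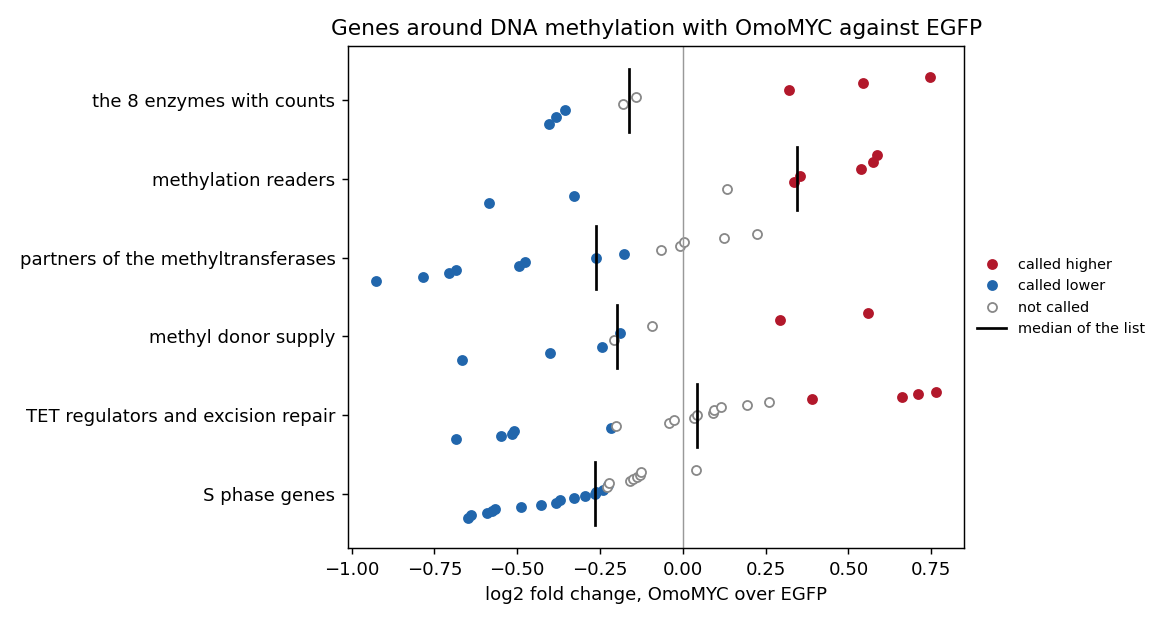
Log2 fold change, OmoMYC over EGFP, of each tested gene in the 8 enzymes and 5 lists around them, in red where called higher, blue where called lower and open where not called, with a black bar at the list's median. The enzymes fall on both sides of 0, whereas the called genes among the partners and the S phase genes all lie below 0.

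For the 3 called enzymes with the largest changes, the genes most like them were sought by the root mean square difference in log2 CPM, centred within each experiment, over all 14 libraries and 13423 genes. Nearest to TET3 were CUX1 (0.0425), CACNA1B (0.0433) and R3HCC1 (0.0476), against a median of 0.296 over all genes. Nearest to TET2 were DNAJC18 (0.0344), MLLT3 (0.0377) and KLHL13 (0.0395), with a median of 0.243. Nearest to TET1 were B3GALNT2 (0.0356), PURB (0.0380) and OSBPL1A (0.0389), with a median of 0.210. The named genes were picked as the smallest of 13423 distances, so they lie below the median by construction. The medians give the scale of the distances only, and a shared regulation was not tested.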

How the data were processed

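RNA-seq of CHP-134 cells was analysed in 14 libraries made from rRNA-depleted total RNA. After trimming with Cutadapt, the authors mapped reads to hg19 by STAR and summarised them by FeatureCounts, and the deposited values are the resulting counts per gene, whole numbers without normalization. The annotation, the strand setting and the versions of these tools are not given in the sources used here. Totals were 28060817 to 53451641 counts per library. Samples were grouped by their labels, and replicates are biological per the paper's methods.

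Each experiment was fitted alone in R 4.3.3 with edgeR 4.0.16 (filterByExpr defaults, TMM, robust quasi-likelihood test, Benjamini-Hochberg adjustment, adjusted p under 0.05). Log2 CPM used a prior count of 2. DESeq2 1.42.0, limma-voom (limma 3.58.1), other scalings, other filters on low counts, a replicate block and leaving out each library were alternatives. A factor that set replicates 1 and 2 of the parental experiment apart from 3 and 4 was also tried. The fits were tested on simulated data.

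RPKM used merged exons, or the canonical transcript as an alternative, of GENCODE lifted to GRCh37, in which 18766 of 19726 identifiers were found. Promoter sequences are from RefSeq, GRCh38.p14, and no coordinates were converted. The enzymes, lists and tests were chosen with earlier results of these data known. The rule for other named genes took, per list, the 2 called genes with the largest rise and the 2 with the largest fall among those with a mean of at least 1 CPM, any list gene called with dTAG47, and for the 3 most changed enzymes the 3 nearest genes. HELLS, PCNA, PTPRC, TH, DBH, GATA3, PECAM1, PRAME, TDRD9 and EHMT2 were named outside it, after their values were seen, and some genes that the rule names are not reported here.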

Additional observations from a re-analysis of the deposited data

Results flagged for a closer look

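In groups of 4 libraries, an enzyme's highest or lowest library was set against the others by Dixon's criterion, which chance alone meets in about 1 in 20 groups. Of 16 combinations of gene and group, 2 met it. DNMT1 was at 368 CPM in DMSO replicate 4 and at 340 to 344 CPM in the other DMSO libraries. TET1 was at 71.8 CPM in dTAG47 replicate 2 and at 60.5 to 62.3 CPM in the other dTAG47 libraries.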

How the results depend on the processing

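With OmoMYC, the calls of DNMT3A, TET2, TET3, UHRF2, TET1 and TDG kept their direction and stayed under the threshold in all 14 alternatives, and 3 enzymes were called higher in each. The number called lower was 3 as reported and 3 to 5 when 1 library was left out, 5 being reached without EGFP replicate 1, where DNMT1 and DNMT3B were added. DNMT1 was also called with DESeq2 (adjusted p 0.0404), RLE factors (0.0464) and upper quartile factors (0.0486) and with the replicate block (0.0266), and its adjusted p ran from 0.000757 to 0.136 over the 14 alternatives. With dTAG47, no enzyme was called in any of 17 alternatives, the lowest adjusted p being 0.0854, for TDG with a factor for replicates 1 and 2 against 3 and 4. The sign of values near 0 turned. For TET2 the log2 fold change was -0.00097 with DESeq2, -0.0012 with RLE factors, -0.0092 with library size only and -0.00055 without a filter, for DNMT3A it was -0.0027 with library size only, and without 1 library it ran from -0.036 to 0.019 for TET2, from -0.013 to 0.026 for DNMT3A and from -0.033 to 0.012 for TET3. The number of all genes called with dTAG47 was 23 as reported, 59 with DESeq2, 794 with that factor and 6 (without DMSO replicate 1 or 4 or dTAG47 replicate 3) to 84 (without dTAG47 replicate 2) without 1 library. The number without DMSO replicate 2 or 3 or dTAG47 replicate 1 or 4 was 7 to 13. Replicate numbers were not taken as pairing the samples, since the correlation of deviations between same-numbered libraries ran from -0.07 to 0.29 with OmoMYC and from 0.0093 to 0.16 with dTAG47, and not each library correlated best with its own number. The parental libraries did fall into replicates 1 and 2 and replicates 3 and 4. Between DMSO and dTAG47 libraries, all correlations within these sets were positive (0.0093 to 0.25). All correlations across the sets were negative (-0.23 to -0.02). With the replicate block, 8100 genes were called with OmoMYC (7311 as reported) and 668 with dTAG47, and the block changed no other enzyme's call than that of DNMT1. The cause of these differences was not tested. The lowest count of an enzyme in any library was 748 (DNMT3B in DMSO replicate 3), and the number of libraries per group limits the precision of all fold changes.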

Other observations

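Germline genes that are often silenced by promoter methylation in somatic cells were examined as a further list. Of 26 such genes, 15 were analysed with OmoMYC and 5 of these passed the filter on low counts and were tested, of which 1 was called higher and 1 lower. CTCFL, a paralog of CTCF, fell from 99.3 to 78.4 CPM (log2 fold change -0.34, edgeR adjusted p 0.0015). The gene called higher, TDRD9, had 0 counts in each EGFP library and 12 to 23 counts in the OmoMYC libraries, at least 5.37-fold higher against a floor of 3 counts per library. It passed the filter on low counts only through the OmoMYC libraries, so the count of calls in this list supports nothing about the list. In the parental experiment 5 of the 26 were tested and none was called with dTAG47 by edgeR (1 was lower at an unadjusted p under 0.05). PRAME, the most abundant of them, was at 562 CPM in EGFP and 603 CPM in OmoMYC cells and was not called.

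The tables differed widely on some genes. EHMT2, a histone methyltransferase, had 0 to 4 counts in the EGFP and OmoMYC libraries and 4866 to 6690 counts in the parental libraries, under different identifiers. Over 17227 shared identifiers, 164 had under 10 counts in every library of the OmoMYC table and at least 100 in every parental library, and 0 the other way round. None of the 8 enzymes was among them, and the cause was not tested.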
